A study of Homo sapiens with 6 samples.

Results

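Glycolysis, from glucose uptake to lactate export, was described through 33 genes by RNA sequencing of 6 libraries. Their labels name A549, a long-established cell line from a human lung adenocarcinoma. The genes are listed enzymes, isoforms, transporters and pyruvate dehydrogenase regulators of 17 pathway steps. All 33 were found, each under a single Ensembl ID, among the 78932 listed genes. Enough counts for testing were present for 32 of them, among 16091 tested genes. FBP1, the gluconeogenic fructose 1,6-bisphosphatase, was not tested, with 0 reads in the overexpression libraries and 2 reads over those labelled wild type. The design has 3 libraries labelled wild type and 3 labelled as overexpressing HIF-1β after transfection, all grown in the same medium with no oxygen or drug treatment named. The sources used here do not give the construct, its promoter, the duration of expression or whether the cells were a clone.

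Glycolysis splits glucose into pyruvate in the cytosol, and lactate dehydrogenase turns pyruvate into lactate, which leaves through monocarboxylate transporters. Most steps are shared by isoforms encoded by separate genes that differ in tissue, kinetics and regulation. Many of these genes are textbook targets of hypoxia-inducible factor, a dimer of HIF-1α or HIF-2α with HIF-1β, the product of ARNT, which binds short cores of sequence in promoters and enhancers. Pyruvate dehydrogenase kinases act in the mitochondrial matrix, where they inactivate the pyruvate dehydrogenase complex and so slow the conversion of pyruvate to acetyl-CoA, and lung cancer cells are known for high glucose uptake.

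Levels are CPM, in which each count is divided by its library's TMM-scaled total over the tested genes. The overexpression libraries come first in every comparison, followed by the libraries labelled wild type, and means are given ± SD (n = 3 each). Library totals were 17192161 to 24454236 counts. ARNT was at 141, 146 and 130.003 CPM against 39.02, 50.04 and 42.2 CPM, so the libraries differed in the direction of their labels (3.18-fold higher, log2 fold change 1.67, SE 0.095, adjusted p = 6.5e-08). Other genes did not match the cell line label that all libraries share. A549 is known to have lost MTAP, an enzyme gene of methionine salvage, and to carry mutated SMARCA4, a chromatin remodelling ATPase gene. MTAP was at 0.400 ± 0.234 against 78.1 ± 5.01 CPM, so the libraries labelled wild type go against their cell line label on this gene. CDKN2A, a tumour suppressor gene that A549 is also known to have lost, had 0 reads in every library. SMARCA4 was at 15.6 ± 1.83 against 201 ± 4.33 CPM. Of 6 epithelial markers 5 were higher and KRT19 was lower in the overexpression libraries. Their summed level was 7880 to 8648 CPM and 2571 to 2794 CPM. KRT7 was at 1481 ± 94.6 against 9.45 ± 3.79 CPM and CDH1 at 228 ± 24.97 against 0.672 ± 0.793 CPM. Of 8 alveolar markers 6 were under 1 CPM in both groups, NKX2-1 and SFTPC among them, and the sum was 44.0 to 57.7 CPM and 8.08 to 10.3 CPM. Nearly all of that sum was ABCA3, which was higher at 48.8 ± 6.85 against 9.46 ± 1.45 CPM. Endothelial markers summed to at most 0.243 CPM in any library. The 5 immune markers summed to 29.2 to 36.8 CPM and 15.5 to 16.1 CPM, nearly all of it CD68, a macrophage marker that was higher at 32.96 ± 4.01 against 15.7 ± 0.397 CPM (adjusted p = 5.1e-06), while PTPRC and CD3E had 0 reads throughout. Fibroblast markers, with COL1A2 at 0 reads, summed to 8.32 to 8.98 CPM and 12.7 to 17.4 CPM. Different genes made up these sums. COL1A1 was higher at 8.14 ± 0.337 against 0.828 ± 0.294 CPM. COL3A1 was lower, with 1 read against 789, and so was PDGFRB, with 3 reads against 56. Neuroendocrine markers, with INSM1 and NEUROD1 at 0 reads, summed to 7.22 to 9.27 CPM and 12.8 to 15.4 CPM. Among them CHGA was lower at 1.12 ± 0.439 against 12.4 ± 1.07 CPM, and SYP was higher at 6.97 ± 0.831 against 1.60 ± 0.464 CPM. These differences separate the same libraries as every result given here, and their part in the results and that of HIF-1β cannot be told apart. In bulk RNA, fewer cells of a type and less RNA per cell cannot be told apart either.

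Of the 32 tested glycolysis genes, 14 were higher and 12 were lower in the overexpression libraries, and 6 did not pass. That is 81.2% called, where 74.0% of all 16091 tested genes were called at an adjusted p under 0.05 (edgeR quasi-likelihood test, Benjamini-Hochberg adjustment over all tested genes). By direction, 38.3% of all tested genes were called higher and 35.7% lower. A called difference over 2-fold was found for 15 members, 46.9%, against 37.6% of all tested genes. For 29 members, 90.6%, every library of one group lay above every library of the other, which held for 77.3% of all tested genes. The median log2 fold change of the tested members was 0.05, and that of all tested genes was 0.03. The members together took 2.05% to 2.203% of the scaled counts in the overexpression group, and 2.10% to 2.19% in the group labelled wild type, so these ranges overlapped.

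**Figure D1:**
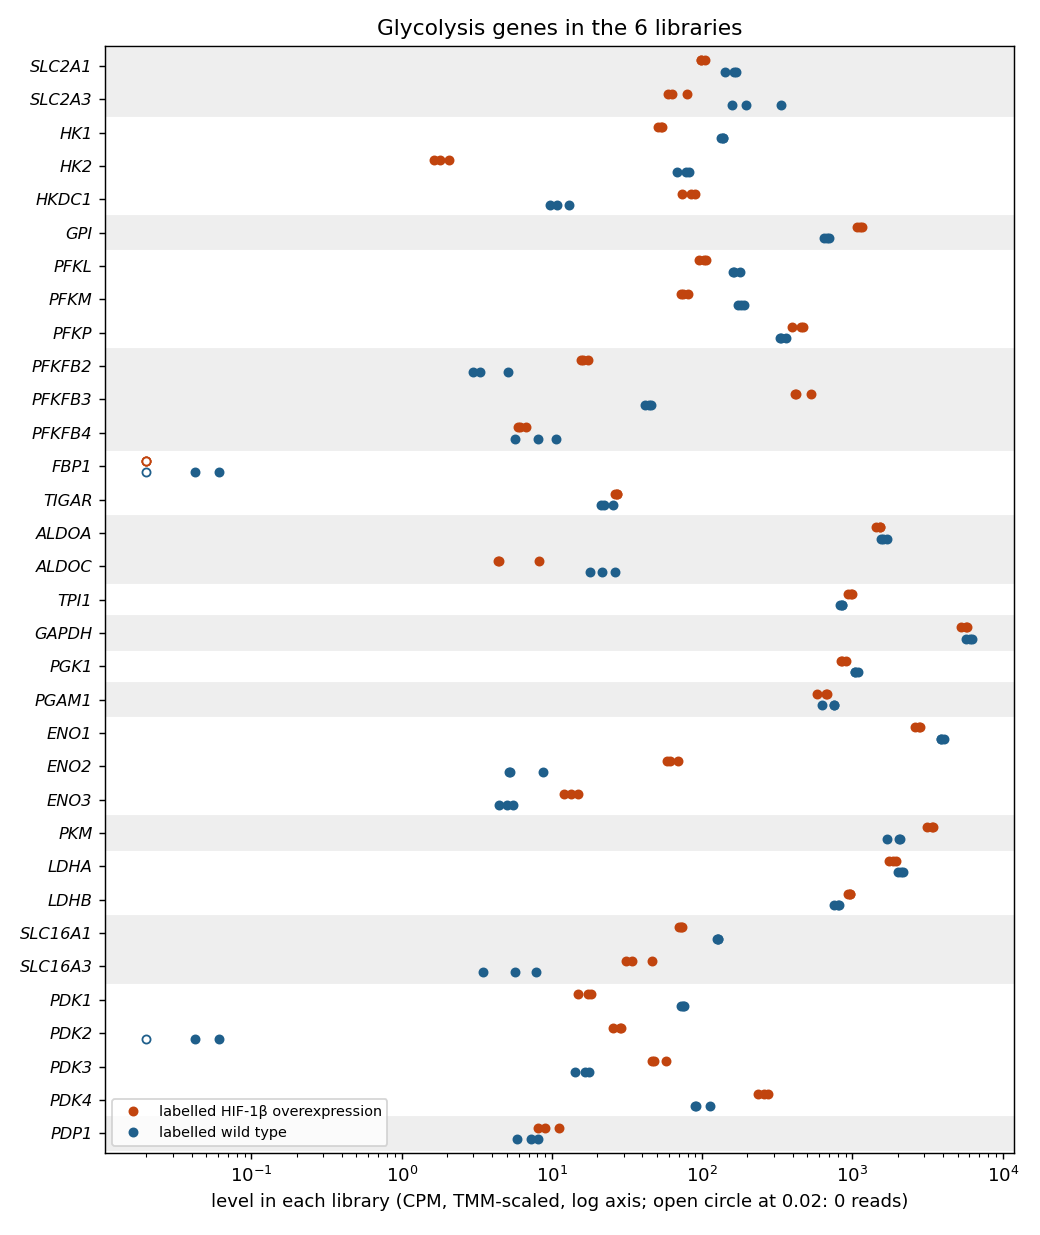
Level of each of the 33 glycolysis genes in each of the 6 libraries, in CPM on a log axis, grouped by pathway step with grey bands; red points are overexpression libraries, blue points are libraries labelled wild type, and open circles mark 0 reads. The red and blue points stand far apart for HK2, HKDC1, PFKFB3, ENO2 and PDK2, and the points lie close together for GAPDH, ALDOA, PGAM1 and TIGAR.

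Promoter sequence is shown for 5 members, chosen after their values were seen, that span the directions and the numbers of cores, since HIF-1β dimers are known to bind such cores. Windows are the 250 bases before the gene start, from RefSeq on GRCh38.p14, using the first start listed for each gene, which can differ from the start of the GENCODE gene span. They were searched for ACGTG and GCGTG on both strands, with overlapping matches counted, so that the palindrome CACGTG counts on each strand. Capitals mark the matches, including their reverse complements CACGT and CACGC. The HK2 window lies at chr2:74833877-74834126, plus strand, the HKDC1 window at chr10:69220082-69220331, plus strand, the ALDOC window at chr17:28576896-28577145, minus strand, the ENO2 window at chr12:6914330-6914579, plus strand and the LDHA window at chr11:18394313-18394562, plus strand.
HK2: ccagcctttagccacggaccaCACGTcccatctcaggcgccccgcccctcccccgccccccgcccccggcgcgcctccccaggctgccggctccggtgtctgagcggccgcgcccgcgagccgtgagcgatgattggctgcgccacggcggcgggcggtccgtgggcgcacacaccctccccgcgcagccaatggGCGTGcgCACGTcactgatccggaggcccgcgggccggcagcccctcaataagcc
HKDC1: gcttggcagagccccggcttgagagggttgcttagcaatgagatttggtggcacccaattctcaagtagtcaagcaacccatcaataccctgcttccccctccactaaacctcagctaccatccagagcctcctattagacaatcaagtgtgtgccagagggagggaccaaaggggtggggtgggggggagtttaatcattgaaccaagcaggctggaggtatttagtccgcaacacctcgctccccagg
ALDOC: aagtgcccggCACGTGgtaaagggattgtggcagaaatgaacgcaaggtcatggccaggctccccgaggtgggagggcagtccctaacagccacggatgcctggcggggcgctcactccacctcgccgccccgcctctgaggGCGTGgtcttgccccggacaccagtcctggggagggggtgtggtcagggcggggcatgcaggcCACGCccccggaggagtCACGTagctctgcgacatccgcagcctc
ENO2: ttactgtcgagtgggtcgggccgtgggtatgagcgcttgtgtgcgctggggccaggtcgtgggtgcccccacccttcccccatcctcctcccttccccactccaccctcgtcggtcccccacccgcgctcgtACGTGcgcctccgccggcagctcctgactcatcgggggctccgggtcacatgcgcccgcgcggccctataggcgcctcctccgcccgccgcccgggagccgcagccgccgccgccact
LDHA: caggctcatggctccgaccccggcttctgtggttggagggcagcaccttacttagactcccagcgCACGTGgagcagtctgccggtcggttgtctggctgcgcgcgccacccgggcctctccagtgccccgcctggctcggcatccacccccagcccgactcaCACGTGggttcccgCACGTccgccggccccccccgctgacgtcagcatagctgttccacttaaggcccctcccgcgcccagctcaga
HK2, which was lower, held 3 matches, and HKDC1, which was higher, held 0. ALDOC and LDHA, which were lower, held 5 each, and ENO2, which was higher, held 1, which starts 118 bases before the gene start. These 5 members do not stand for the others. First windows of SLC2A1, HK1, PFKM and PDK1, which were lower, held 0 matches. Those of ENO3 and PDK3, which were higher, held 2 each. Of the 29 members with a window, 16 held a match in their first window, 55.2%, against 43.1% of the first windows of 27305 genes. In first windows the match was present in 5 of 13 members called higher and 6 of 10 called lower. It was also present in 4 of 5 that did not pass, and in FBP1. These counts depend on the start used. Of members with no match in the first window, PFKP, TPI1, SLC16A3 and PDK2, called higher, held one in a later window. So did HK1, PFKM and PDK1, called lower. Over all 58 windows of the members 31 held a match, 53.4%, against 43.2% of all 35116 windows. A match is a description of the letters in the window and not a binding site.

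Both glucose transporter genes were lower. SLC2A1, which encodes the widespread transporter GLUT1, was at 105, 97.8 and 98.3 CPM against 164, 142 and 169 CPM, with no overlap between the groups (1.58-fold lower, log2 fold change -0.66, SE 0.079, adjusted p = 2.1e-05). SLC2A3, which encodes the high-affinity transporter GLUT3, was at 63.1, 59.3 and 78.98 CPM against 194, 334 and 158 CPM. It was 3.41-fold lower (log2 fold change -1.77, SE 0.23, adjusted p = 4.7e-05), and wild-type replicate 2 stood above the other libraries of its group. Divided by merged exon length, which allows genes to be compared, the summed level of both transporters was 32.1 ± 1.69 against 70.6 ± 12.04 CPM per kb. SLC2A1 supplied 66.2% ± 3.75 against 48.8% ± 11.7 of that sum. In single libraries labelled wild type the SLC2A1 share was 52.3, 35.7 and 58.2%. With exon length SLC2A3 thus led in replicate 2 alone, and SLC2A1 led in every other library of either group. With no length SLC2A3 also led in wild-type replicate 1, at 194 against 164 CPM. SLC2A14, a near-identical copy of SLC2A3, was listed at 0.294 and 0.0171 CPM.

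The hexokinases, which trap glucose as glucose 6-phosphate, differed in opposite directions. HK2 (ENSG00000159399, chromosome 2, 74833981 to 74893359), the inducible isoform of muscle and tumours, was at 2.06, 1.65 and 1.81 CPM against 81.1, 77.4 and 67.99 CPM, 41.04-fold lower (log2 fold change -5.35, SE 0.12, adjusted p = 8.0e-11). HK1 (ENSG00000156515, chromosome 10, 69269984 to 69401884), the ubiquitous isoform, was at 53.7, 50.8 and 52.8 CPM against 138, 133 and 138 CPM, 2.60-fold lower (log2 fold change -1.38, SE 0.064, adjusted p = 1.2e-08). HKDC1 (ENSG00000156510, chromosome 10, 69220303 to 69267559), a hexokinase domain protein of weak activity, went the other way at 89.8, 72.97 and 84.4 CPM against 10.8, 12.9 and 9.72 CPM, 7.39-fold higher (log2 fold change 2.89, SE 0.12, adjusted p = 5.5e-09). None of the 3 genes had overlapping groups. HKDC1 and HK1 are neighbours on the plus strand of chromosome 10, with 2424 bases between the end of HKDC1 and the start of HK1, and they differed in opposite directions. In exon-length-scaled levels HKDC1 made up 69.1% ± 1.60 against 7.13% ± 0.969 of hexokinase transcripts. HK1 made up 29.9% ± 1.63 against 58.99% ± 2.58 and HK2 1.08% ± 0.0456 against 33.9% ± 2.001. The leading hexokinase was therefore HKDC1 in every overexpression library and HK1 in every library labelled wild type. The summed level was 27.98 ± 2.30 against 36.7 ± 1.17 CPM per kb of exon length. With coding length or no length it was also lower, by a larger factor.

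Glucose 6-phosphate isomerase, encoded by GPI, was at 1120.4, 1072 and 1157 CPM against 673, 698 and 646 CPM, 1.66-fold higher (log2 fold change 0.73, SE 0.064, adjusted p = 1.9e-06). Its groups did not overlap.

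Phosphofructokinase, the committed step, is a tetramer of 3 kinds of subunit, and 1 was higher and 2 were lower. PFKP, the platelet-type subunit, was at 454, 395 and 465 CPM against 336, 364 and 329 CPM (1.28-fold higher, adjusted p = 0.0019). PFKM, the muscle subunit, was at 80.7, 74.1 and 72.5 CPM against 189.8, 172 and 182 CPM (2.40-fold lower, adjusted p = 6.1e-08), and SENP1 overlaps it on the opposite strand at 48.1 and 51.2 CPM. PFKL, the liver subunit, was at 102, 106 and 95.5 CPM against 159, 179.5 and 163 CPM (1.65-fold lower, adjusted p = 6.0e-06). PFKP led in both groups and supplied 80.6% ± 1.80 against 61.9% ± 1.15 of the exon-length-scaled sum. That sum was 104 to 117 against 111 to 119 CPM per kb, so the groups overlapped at this scaling. With coding length or no length, the sum of every overexpression library lay below that of every library labelled wild type.

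The bifunctional PFKFB enzymes make and break fructose 2,6-bisphosphate, the strongest activator of phosphofructokinase. PFKFB3 (ENSG00000170525, chromosome 10, 6144934 to 6254644), the isoform with the highest kinase activity, was at 419, 417 and 532 CPM against 45.8, 41.9 and 44.5 CPM, 10.4-fold higher (log2 fold change 3.37, SE 0.11, adjusted p = 6.2e-10). PFKFB2, the heart isoform, was at 15.5, 16.003 and 17.3 CPM against 2.97, 3.33 and 5.07 CPM, 4.29-fold higher (log2 fold change 2.08, SE 0.19, adjusted p = 3.2e-06). PFKFB4 did not pass, at 6.70, 6.17 and 5.91 CPM against 8.07, 10.6 and 5.66 CPM, and its groups overlapped (adjusted p = 0.15). It passed without wild-type replicate 3 (log2 fold change -0.60, adjusted p = 0.016). The exon-length-scaled sum of the 3 enzymes was 77.2 ± 10.8 against 8.91 ± 0.204 CPM per kb, of which PFKFB3 was 96.6% ± 0.400 against 80.9% ± 3.63. YOD1 overlaps PFKFB2 on the opposite strand and was at 19.2 and 23.0 CPM. TIGAR, a p53-induced phosphatase that lowers fructose 2,6-bisphosphate, was at 26.9, 26.2 and 27.2 CPM against 25.5, 21.3 and 22.03 CPM and narrowly missed the threshold (adjusted p = 0.051). With the replicate number as a block it passed (adjusted p = 0.045), as it did with DESeq2 size factors (0.037), library totals (0.0083) and the filter at 1 CPM (0.037), and without wild-type replicate 1 (0.030).

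**Figure D2:**
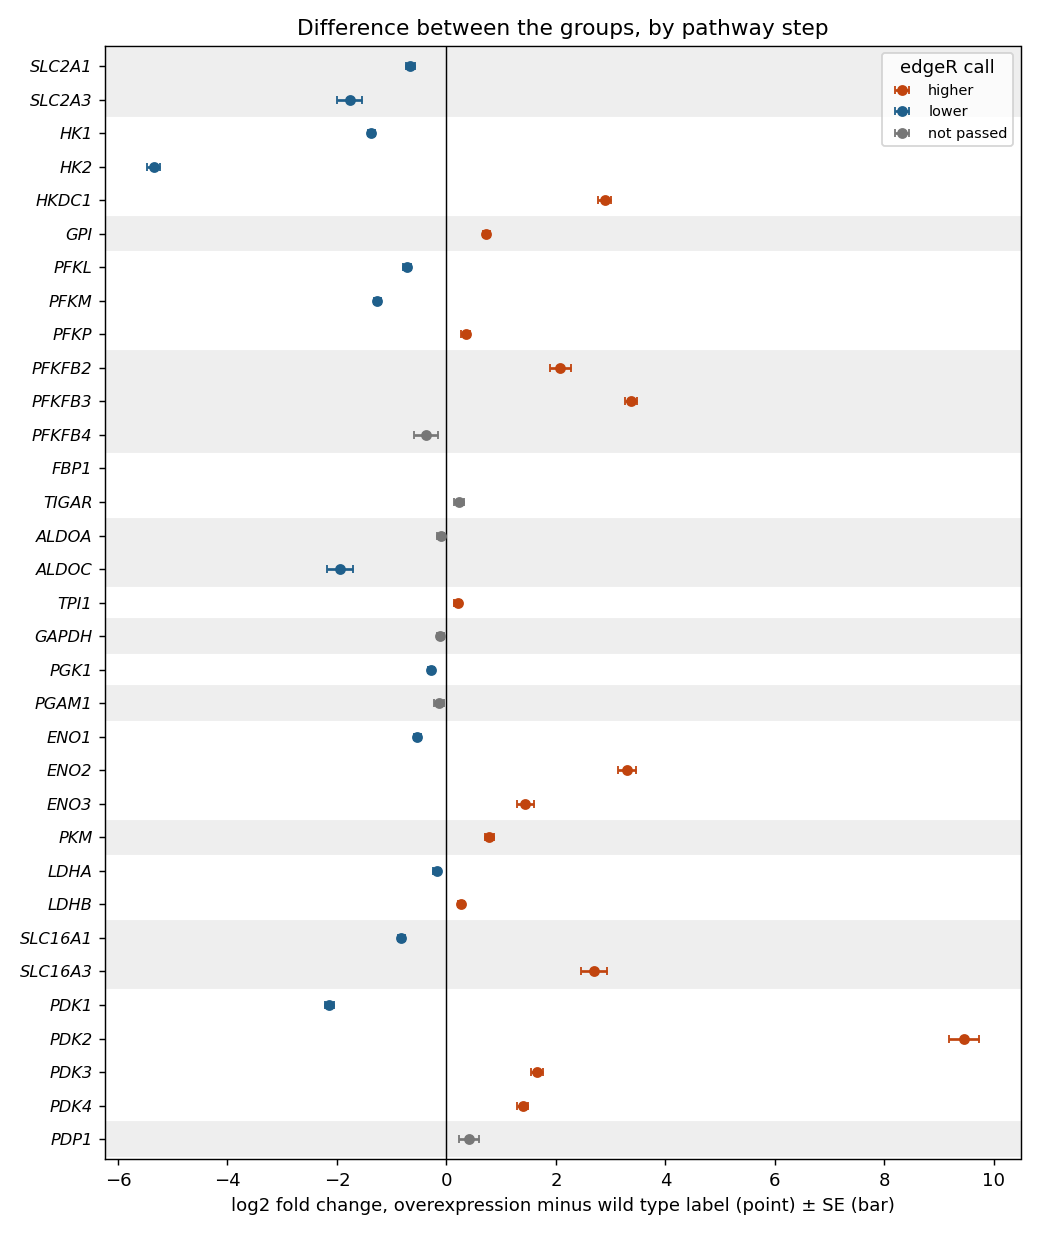
Log2 fold change of each tested glycolysis gene (point) with its standard error (bar), overexpression libraries minus libraries labelled wild type, in pathway order with grey bands for steps; red is called higher, blue called lower and grey not passed, and FBP1 was not tested. Isoforms of a step often lie on opposite sides of 0, as for the hexokinases (-5.35 for HK2 and 2.89 for HKDC1) and the pyruvate dehydrogenase kinases (-2.14 for PDK1 and 9.45 for PDK2, a fitted value that depends on the prior count).

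From aldolase to phosphoglycerate mutase the abundant enzymes differed by at most 1.21-fold. ALDOA, the main aldolase gene, was at 1494 ± 58.2 against 1606 ± 75.2 CPM and did not pass (adjusted p = 0.17), and its log2 fold change changed sign with library totals as the only scaling, from -0.10 to 0.01. ALDOC, the brain-type aldolase gene, was at 4.47, 8.23 and 4.36 CPM against 17.96, 26.3 and 21.4 CPM, 3.85-fold lower (log2 fold change -1.95, SE 0.24, adjusted p = 2.5e-05), and its groups did not overlap. ALDOC was 0.512% ± 0.220 and 1.79% ± 0.277 of exon-length-scaled aldolase transcripts. TPI1, triosephosphate isomerase, was 1.15-fold higher at 969.9 ± 26.997 against 842 ± 14.9 CPM (adjusted p = 0.010), and no longer passed once wild-type replicate 1 was left out (adjusted p = 0.052). GAPDH, often used as a reference gene, was at 5751, 5266 and 5701 CPM against 6287, 5731 and 6083 CPM, with overlapping groups (adjusted p = 0.13). It passed with a replicate block (log2 fold change -0.11, adjusted p = 0.036) and without wild-type replicate 2 (adjusted p = 0.038). PGK1, phosphoglycerate kinase, was 1.21-fold lower at 867 ± 34.4 against 1052 ± 24.8 CPM (adjusted p = 0.0018), and ATP7A, at 45.4 and 21.3 CPM, overlaps its span on the same strand. PGAM1, phosphoglycerate mutase, was at 675, 584 and 669.5 CPM against 753, 623 and 753 CPM and did not pass (adjusted p = 0.17). It passed with a replicate block (log2 fold change -0.14, adjusted p = 0.036) and without wild-type replicate 2 (adjusted p = 0.022, log2 fold change -0.24).

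The enolases split by isoform. ENO1, the ubiquitous enolase gene, was at 2790.1, 2591 and 2828 CPM against 4063, 3871 and 3908 CPM, 1.44-fold lower (log2 fold change -0.53, SE 0.063, adjusted p = 2.0e-05). ENO2 (ENSG00000111674, chromosome 12, 6913745 to 6923698), the neuronal enolase gene, was at 69.2, 60.6 and 58.2 CPM against 5.28, 8.70 and 5.15 CPM, 9.83-fold higher (log2 fold change 3.30, SE 0.17, adjusted p = 3.1e-08). ENO3, the muscle enolase gene, was at 14.99, 13.4 and 12.03 CPM against 4.43, 5.47 and 4.98 CPM, 2.72-fold higher (adjusted p = 1.1e-05). No enolase gene had overlapping groups. ENO1 still made up 96.7% ± 0.315 against 99.6% ± 0.0834 of exon-length-scaled enolase transcripts, and the summed level followed it at 536 ± 24.4 against 751 ± 18.8 CPM per kb. The ENO3 count is uncertain, because PFN1, at 1304 and 970.0 CPM, overlaps it by 970 bases on the opposite strand and the strand setting of the counting is unknown here. LRRC23, at 18.8 and 9.93 CPM, overlaps ENO2 by 499 bases on the same strand. PKM, pyruvate kinase of muscle and tumours, was at 3445, 3145 and 3370.1 CPM against 2059, 1698 and 2036 CPM, 1.72-fold higher (log2 fold change 0.78, SE 0.083, adjusted p = 8.6e-06). Gene counts do not separate its M1 and M2 splice forms.

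The lactate dehydrogenase subunits differed in opposite directions, by small amounts. LDHA, the subunit that favours lactate formation, was at 1874, 1748 and 1939 CPM against 2099, 2170.4 and 2014 CPM, 1.13-fold lower (log2 fold change -0.18, SE 0.066, adjusted p = 0.031). The LDHA call was lost with DESeq2 size factors (adjusted p = 0.052), library totals (0.39) and the filter at 1 CPM (0.051). It was also lost without overexpression replicate 1 (0.074) or 2 (0.074) and without wild-type replicate 1 (0.064) or 2 (0.054). LDHB, the heart-type subunit, was at 959, 933 and 962 CPM against 819, 754 and 800.04 CPM, 1.20-fold higher (adjusted p = 0.0025). Scaled to exon length LDHB supplied 51.7% ± 0.910 against 44.02% ± 1.78 of the pair, so that LDHB led in the overexpression libraries and LDHA in the others. With coding length, or with no length, LDHA led in both groups. The 6 pseudogenes named after LDHA summed to 5.64 and 26.0 CPM, which is 0.304% and 1.24% of LDHA.

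Of the lactate exporters, 1 was lower and 1 was higher. SLC16A1, which encodes the transporter MCT1, was at 73.9, 69.8 and 71.7 CPM against 126, 127 and 127 CPM, 1.77-fold lower (log2 fold change -0.82, SE 0.062, adjusted p = 5.6e-07). SLC16A3 (ENSG00000141526, chromosome 17, 82228397 to 82261129), which encodes MCT4, the exporter of highly glycolytic cells, was at 33.9, 46.3 and 31.1 CPM against 3.46, 7.88 and 5.70 CPM, 6.53-fold higher (log2 fold change 2.69, SE 0.24, adjusted p = 2.1e-06). The groups did not overlap for either gene. MCT4 supplied 23.3% ± 4.24 against 2.57% ± 0.968 of the exon-length-scaled pair, and the summed level was 17.6 ± 0.667 against 24.5 ± 0.343 CPM per kb. The SLC16A3 count is uncertain, since CSNK1D, at 188 and 181 CPM, overlaps its span on the opposite strand.

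Of the pyruvate dehydrogenase kinases, 3 were higher and PDK1 was lower. PDK2 (ENSG00000005882, chromosome 17, 50094737 to 50112152), the widely expressed kinase, was at 28.2, 28.8 and 25.3 CPM with overexpression, from 1873 reads, against 2 reads over all libraries labelled wild type. That is 821-fold, with a 95% counting interval of 227 to 6783 (exact binomial, counting error only; adjusted p = 3.4e-10). PDK1 (ENSG00000152256, chromosome 2, 172555373 to 172608669), a kinase gene known to respond to hypoxia, was at 14.9, 18.3 and 17.5 CPM against 72.3, 75.5 and 74.9 CPM, 4.39-fold lower (log2 fold change -2.14, SE 0.090, adjusted p = 5.8e-09). PDK3 was at 46.1, 57.2 and 48.1 CPM against 16.6, 17.5 and 14.2 CPM, 3.13-fold higher (adjusted p = 2.7e-07). PDK4, a kinase gene known to respond to starvation, was at 259, 275 and 236 CPM against 89.2, 90.7 and 112 CPM, 2.63-fold higher (adjusted p = 3.6e-07). PDK4 led in both groups, with 77.7% ± 0.931 against 72.1% ± 3.22 of exon-length-scaled kinase transcripts. At that scaling PDK1 had 1.56% ± 0.179 against 16.8% ± 1.26. The merged exon length of PDK1 is 14883 bases and its coding length 1368 bases. With coding length or no length the PDK1 share was larger in both groups and still lower with overexpression, and PDK4 still led. The summed kinase level was 73.1 ± 5.68 against 29.8 ± 2.60 CPM per kb. PDP1, the phosphatase that reactivates the complex, was at 11.1, 9.05 and 8.11 CPM against 7.22, 5.88 and 8.04 CPM and did not pass (adjusted p = 0.059). It passed with library totals (adjusted p = 0.024), the filter at 1 CPM (0.049) and the DESeq2 Wald test (0.046). It also passed without overexpression replicate 3 (0.044) or wild-type replicate 3 (0.043).

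**Figure D3:**
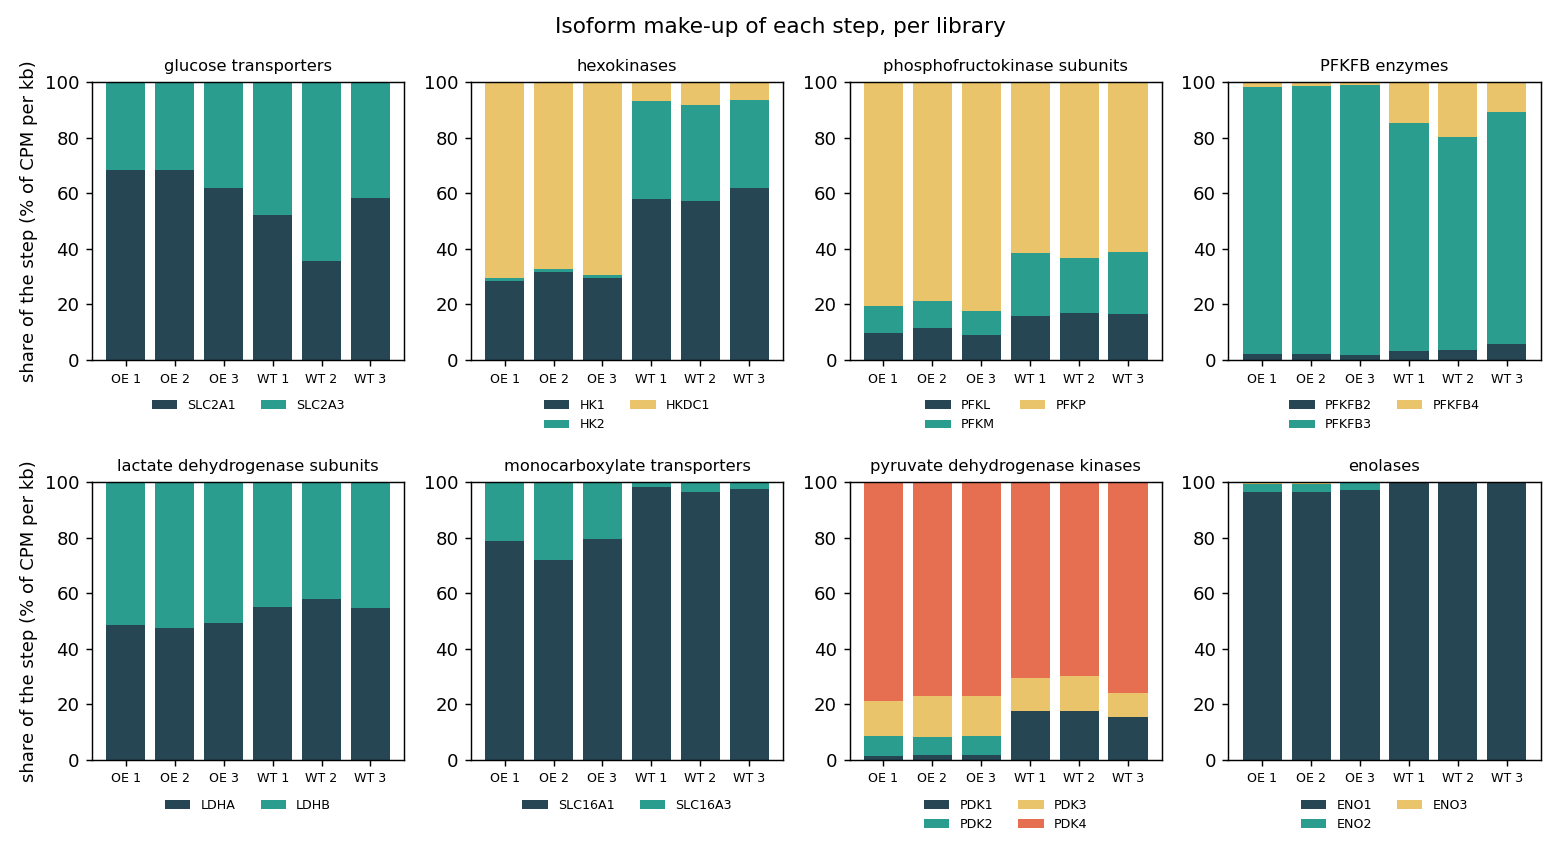
Share of each isoform in the exon-length-scaled level of its step (percent of CPM per kb), stacked to 100% for each of the 6 libraries, with OE for overexpression libraries and WT for libraries labelled wild type. Libraries of a group look alike except for a larger SLC2A3 share in WT replicate 2, and the make-up differs between groups most for the hexokinases, where HKDC1 has 67.3% to 70.4% in OE and 6.44% to 8.24% in WT.

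Across the 10 steps with more than 1 listed gene, shares did not overlap between the groups for 24 of 26 genes, the exceptions being FBP1 and TIGAR. For CPM, 77.3% of all tested genes did not overlap, and shares within a step sum to 100%, so those of a pair mirror each other and are not separate results. Exact two-sided permutation tests over libraries gave p = 0.4 for these exceptions and p = 0.1 for each of the 24, the smallest that 3 against 3 libraries allow. By group means of exon-length-scaled levels the leading gene differed in 3 steps, the hexokinases, lactate dehydrogenase and the glucose transporters. At this scaling the glucose transporter difference came through wild-type replicate 2 alone, and without that library the leading gene differed in 2 steps. With coding length or no length the lactate dehydrogenase difference was not present, and the glucose transporter difference was. With no length SLC2A3 led in wild-type replicate 1 as well as replicate 2. The hexokinase difference was present with exon, coding or no length and with any library left out.

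Members with many counts had smaller log2 fold changes than the other members. The 10 members at 500 CPM or more over all libraries, a limit chosen after their values were seen, were GPI, ALDOA, TPI1, GAPDH, PGK1, PGAM1, ENO1, PKM, LDHA and LDHB. Their log2 fold changes ran from -0.53 to 0.78 and none differed over 2-fold, with 4 called higher, 3 lower and 3 not passed. Of all 250 tested genes at that level, 26.4% differed over 2-fold, called or not. The median size of the log2 fold change was 0.23 for the 10 members and 0.62 for the 250 genes. Among the 22 tested members below the limit 15 differed over 2-fold, where 38.7% of 15841 genes below it did, called or not. The median size was 1.54 for these members and 0.71 for all genes below the limit. CPM also grows with transcript length, so the limit sorts genes by counts and not by molecules.

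Neighbouring members differed in direction. Of 5 members on chromosome 12 between 4307763 and 7936275, TPI1 and ENO2 were higher, SLC2A3 was lower, and GAPDH and TIGAR did not pass.

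The rest of the pathway also went both ways. Of 68 further genes of transport, gluconeogenesis, pyruvate entry and side branches, 49 were tested, 20 were higher, 25 were lower and 4 did not pass. That is 91.8% called, beside 74.0% of all tested genes, of which 38.3% were higher and 35.7% lower, the background for each list that follows. The lists hold 7 to 16 tested genes each, and no list was tested against it. Among other transporters 5 of 8 were higher and 3 lower. EMB, an accessory protein of monocarboxylate transporters, was 6.94-fold higher at 13.1 ± 0.420 against 1.89 ± 0.476 CPM (adjusted p = 3.9e-07). SLC16A7, which encodes the high-affinity transporter MCT2, was 22.8-fold lower at 7.22 ± 1.74 against 165 ± 5.25 CPM (adjusted p = 4.3e-10). Among other glycolytic and gluconeogenic isozymes 5 of 7 were higher and 1 was lower, and 14 were not tested. LDHD, the D-lactate dehydrogenase gene, was 2.46-fold higher at 3.65 ± 0.522 against 1.48 ± 0.396 CPM (adjusted p = 0.0012), and PCK2, mitochondrial phosphoenolpyruvate carboxykinase, was 2.34-fold lower at 77.6 ± 9.01 against 182 ± 5.45 CPM (adjusted p = 3.3e-07). PCK1, the cytosolic form, had 56 reads with overexpression and 0 otherwise, at least 16.4-fold higher against a floor of 3 counts per group. ENO4 had 44 reads with overexpression and 0 otherwise, at least 12.9-fold higher by the same floor.

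Genes of pyruvate entry into mitochondria were lower in 7 of 10 and higher in 2. MPC1, a subunit of the mitochondrial pyruvate carrier, was 2.37-fold lower at 2.72 ± 0.791 against 6.44 ± 0.163 CPM (adjusted p = 0.00066). PDPR, the regulatory subunit of pyruvate dehydrogenase phosphatase, was 2.01-fold higher at 74.3 ± 4.11 against 37.04 ± 3.86 CPM (adjusted p = 2.1e-06). In the pentose phosphate pathway, which makes NADPH and ribose, 3 of 8 genes were higher and 4 lower, and none differed over 2-fold. Transketolase, encoded by TKT, was 1.81-fold higher at 2198 ± 221 against 1211 ± 44.5 CPM (adjusted p = 2.9e-06). The ribose phosphate isomerase gene RPIA was 1.52-fold lower at 19.1 ± 1.26 against 28.98 ± 2.77 CPM (adjusted p = 0.00027). Among 16 genes of serine, hexosamine, glycerol and glycogen branches 10 were lower and 5 higher. PGM2L1, a glucose 1,6-bisphosphate synthase gene, was 26.3-fold higher at 26.4 ± 1.41 against 1.01 ± 0.293 CPM (adjusted p = 2.5e-09), and the glycerol 3-phosphate dehydrogenase gene GPD1 was 4.73-fold lower at 0.396 ± 0.345 against 1.87 ± 0.925 CPM (adjusted p = 0.0087). GPD1 had 1, 9 and 17 reads in the overexpression libraries, and its log2 fold change moved from -2.23 to -3.04 without overexpression replicate 3.

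**Figure D4:**
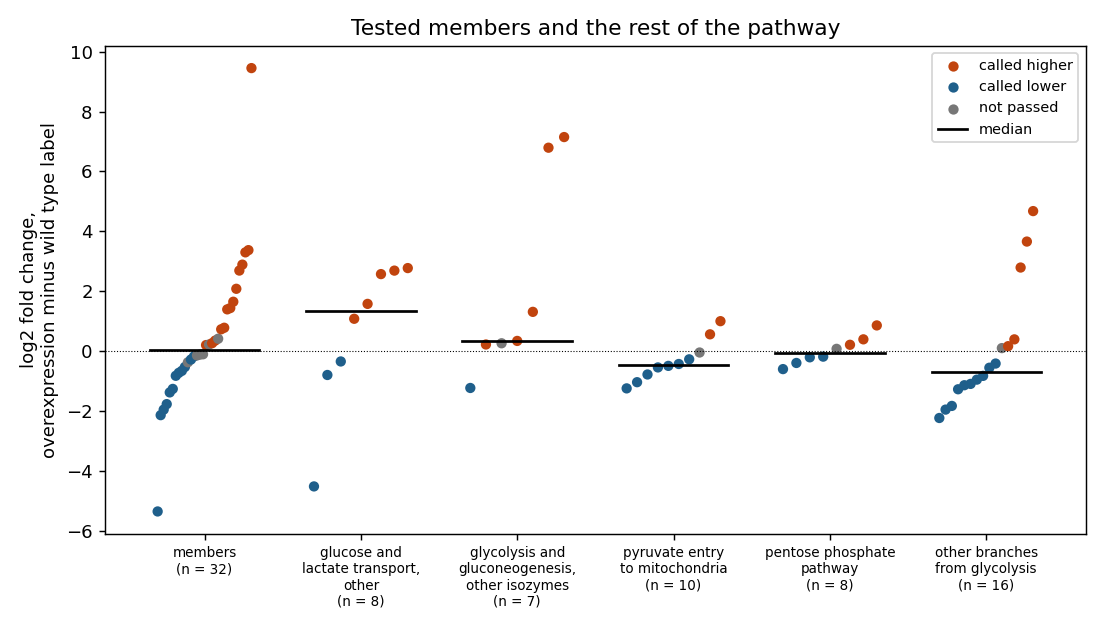
Log2 fold change, overexpression libraries minus libraries labelled wild type, of each tested gene (points) among the glycolysis members and 5 lists of the rest of the pathway, with the median as a black line; red is called higher, blue called lower and grey not passed. The median was 1.33 for other transporters, -0.46 for pyruvate entry and -0.69 for the other branches, and the points of each list lie on both sides of 0.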

How the data were processed

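RNA was sequenced in 3 libraries labelled wild type and 3 labelled as HIF-1β overexpression. The authors deposited expected counts per Ensembl gene, credited to salmon by the name of the table; bcl2fastq 2.20 and the GRCh38 build are named per the submitters' processing notes. The version of salmon, its annotation release and its strand setting were not given in the sources used here. Labels conflict on the RNA, naming polyA RNA in the molecule field and a ribosomal RNA depletion kit in the protocol. A further 6 columns of per-sample values were not used here. They are named for a cell line other than A549 and fit no listed sample. Whether replicate libraries are separate cultures is not said, and the p-values then cover only a spread between libraries that could be technical.

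Counts were rounded to whole numbers (in any library at most 9.51% of values lay further than 1e-06 from one). Genes were kept by filterByExpr at a smallest count of 10, scaled by TMM and tested with edgeR 4.0.16 quasi-likelihood F tests in R 4.3.3. P-values were adjusted by Benjamini-Hochberg over all tested genes, and the threshold was 0.05. The steps were tested on simulated data with far fewer changed genes than were called here. That test therefore does not cover the scaling or the rate of false calls in the present setting. The standard error is the size of the log2 fold change divided by the square root of F. Folds are ratios of mean CPM. Where a group had 1 to 3 counts, the fold compares summed counts over summed scaled totals. At this depth 3 counts over a group correspond to 0.0439 CPM with overexpression and 0.0501 CPM otherwise, for counting error only. Within groups, counts of library pairs differed by 6.08 to 15.8 in chi-square per degree of freedom, so no library repeated another.

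The labels have a batch field that holds only the replicate number, and on that ground the numbers were taken to pair the libraries; nothing else says what the batch was. Over all tested genes, deviations from group means correlated by -0.0059, 0.090 and 0.0042 within the numbered pairs and by -0.061 to 0.055 across pairs. Over the genes above the median level the values were 0.0747, 0.103 and 0.185 within pairs and -0.121 to -0.0047 across. The fit without a block is the main one.

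Gene symbols, found for 77.9% of IDs, came from the supplied name table, and positions and exon lengths from GENCODE release 29 on GRCh38, 1-based. Merged exon length counts all annotated transcripts of a gene and can exceed the length of those expressed. Members and lists were chosen with earlier results of these data known, so a count of members is a description. All members are described. Of each other pathway list, the called genes with the highest and the lowest log2 fold change among those at 1 CPM or more in a group are named. PCK1 and ENO4, which were under that limit, are named in addition.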

Additional observations from a re-analysis of the deposited data

How the results depend on the processing

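Counts of called genes stayed within 1.5 times the values given under the other settings: DESeq2 size factors, library totals, no filter, a filter at 1 CPM in 3 libraries, the DESeq2 Wald test, a replicate block, and leaving out each of the 6 libraries. Of the members, 14 to 16 were called higher and 11 to 14 lower. With a replicate block 15 were higher and 14 lower, through TIGAR, GAPDH and PGAM1, and the block changed no other member call. Single members kept direction and side of the threshold in 360 refits, lost a call in 8 and gained one in 15. ALDOA changed sign with library totals, from -0.10 to 0.010 (log2); the cause was not tested. Library totals moved the median over all tested genes (log2 fold change) from 0.03 to 0.15, and testing every gene with a count moved it to 0.25, over 30282 genes. ARNT ranged from 1.58 to 1.77 (log2) without a library. The planned coding length from a protein table was not run, and coding length from GENCODE was added after seeing the data. Isoform shares and summed levels of steps are given at exon length, and their sizes depend on the length used. Depth limits FBP1, whose 0 and 2 reads allow no comparison.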
